A study of Mus musculus with 8 samples.

Results

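The Iroquois homeobox genes Irx1, Irx2, Irx3, Irx4, Irx5 and Irx6 were followed in RNA-seq libraries of embryonic mouse brain from the Ohia line, which models hypoplastic left heart syndrome (HLHS), an underdevelopment of the left heart from birth. The 6 genes were taken by symbol, as the rows whose Ensembl identifier carries 1 of these names, and are 6 of the 34866 genes in the deposited table. All 6 had enough counts to enter the tests. The family was picked because its members stood higher in mutant than in control brains, so the mutant to control differences below describe the choice and support nothing by themselves.

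The study sequenced whole brains of 3 mutant and 5 control embryos. Mutants were homozygous for the mutant alleles of both Sap130, a subunit of the SIN3 histone deacetylase repressor complex, and Pcdha9, an alpha protocadherin of neurons, and the controls were heterozygous for both, so every library carried at least 1 mutant copy of each gene. Mutant 260-1 and controls 260-2 and 260-3 came from embryos at E13.5 (days after conception), and mutants 195-3 and 303-2 and controls 195-2, 195-6 and 303-3 at E14.5. Libraries are named by the last 2 numbers of their titles, and the first of these was read as a litter number, which the labels do not define. Litter 260 is then the whole of E13.5, so stage and litter cannot be told apart.

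Iroquois proteins are transcription factors of the TALE class, whose DNA-binding homeodomain has an extended loop between its first helices. In the embryonic brain the family is known for marking the neural tube from the middle of the diencephalon backward, through thalamus, midbrain, hindbrain and spinal cord, while the telencephalon in front of that border lacks most of its members. In mammals the genes lie in paired clusters, IrxA with Irx1, Irx2 and Irx4 and IrxB with Irx3, Irx5 and Irx6, and neighbours within a cluster are known to share regulatory DNA.

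The homeobox is the stretch of DNA that makes these genes a family and in which reads of different members are hardest to tell apart, so it is shown for all 6. A window of 63 codons was located as the best conserved stretch of their aligned coding sequences (GENCODE M21, GRCm38). It is printed 5′ to 3′ on the coding strand, with capitals at the 149 of 189 bases that are identical in all 6 genes. No intron interrupts the window in any member.
Irx1, chr13:71959983-71960171, minus strand: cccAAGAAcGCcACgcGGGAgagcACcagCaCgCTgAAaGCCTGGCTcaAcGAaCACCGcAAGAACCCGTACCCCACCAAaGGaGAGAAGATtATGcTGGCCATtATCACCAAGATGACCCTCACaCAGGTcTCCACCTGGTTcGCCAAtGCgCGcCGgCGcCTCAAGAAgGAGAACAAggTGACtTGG
Irx2, chr13:72630673-72630861, plus strand: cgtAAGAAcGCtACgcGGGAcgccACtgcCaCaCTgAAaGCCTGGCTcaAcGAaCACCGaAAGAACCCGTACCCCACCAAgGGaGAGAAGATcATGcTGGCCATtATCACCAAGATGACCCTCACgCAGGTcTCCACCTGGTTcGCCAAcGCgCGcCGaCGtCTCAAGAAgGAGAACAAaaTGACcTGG
Irx4, chr13:73267532-73267720, plus strand: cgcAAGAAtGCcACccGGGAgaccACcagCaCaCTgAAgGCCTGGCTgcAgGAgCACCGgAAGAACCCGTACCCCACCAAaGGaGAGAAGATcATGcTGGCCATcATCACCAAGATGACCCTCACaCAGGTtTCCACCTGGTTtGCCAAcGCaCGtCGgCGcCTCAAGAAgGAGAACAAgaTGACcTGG
Irx3, chr8:91800487-91800675, minus strand: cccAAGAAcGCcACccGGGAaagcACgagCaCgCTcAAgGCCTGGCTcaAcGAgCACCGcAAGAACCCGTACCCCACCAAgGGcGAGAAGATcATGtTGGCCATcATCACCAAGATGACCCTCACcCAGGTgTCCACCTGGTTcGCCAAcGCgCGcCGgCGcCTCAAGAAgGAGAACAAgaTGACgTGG
Irx5, chr8:92359636-92359824, plus strand: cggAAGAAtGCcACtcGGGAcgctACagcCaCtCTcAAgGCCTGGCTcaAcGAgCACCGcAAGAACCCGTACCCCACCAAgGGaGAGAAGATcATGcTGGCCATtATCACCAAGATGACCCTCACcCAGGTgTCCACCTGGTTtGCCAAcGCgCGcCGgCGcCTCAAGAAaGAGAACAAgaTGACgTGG
Irx6, chr8:92677245-92677433, plus strand: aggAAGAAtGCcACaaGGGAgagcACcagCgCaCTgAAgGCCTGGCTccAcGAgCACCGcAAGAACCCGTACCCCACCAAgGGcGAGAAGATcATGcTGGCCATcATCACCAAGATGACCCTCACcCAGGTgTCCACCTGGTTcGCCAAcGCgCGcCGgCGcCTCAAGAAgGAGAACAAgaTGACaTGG

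Across the 15 pairs of genes, 86.8% to 92.6% of the bases in this window were identical, and 56 of the 63 residues it encodes were the same in every member. By encoded residues the pairs most alike joined the clusters: Irx2 and Irx5 encode the same 63 residues from 170 identical bases, and Irx1 and Irx3 share 62 residues. By bases the pair most alike was Irx3 and Irx6, both of IrxB, with 175 identical bases and with the longest unbroken match of their coding sequences, 88 bases. The longest match of Irx2 with Irx5 was 65 bases and that of Irx3 with Irx5 was 50 bases, and the shortest over the 15 pairs was 23 bases. The encoded proteins are 439 to 522 residues long, so most of each coding sequence lies outside this window.

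Fractional values occurred at a single place in the family. Irx3 and Irx6 carried fractional counts in 3 libraries, whereas the other 4 members were whole numbers in all 8. In control 195-2 the values were 817.889 for Irx3 and 121.111 for Irx6, which sum to 939. In control 195-6 they were 821.85 and 174.15, which sum to 996. In mutant 195-3 they were 1932.89 and 289.112, with a sum of 2222.002. The fractions of the pair thus added up to whole reads within 0.002, and the sources used here do not give how reads were counted, so a link to the shared sequence was not tested. Rounding to whole counts moved each value by less than 1 read.

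In the reference annotation the IrxA genes spread over 1312 kb of chromosome 13. Irx1 (ENSMUSG00000060969.9, chr13:71957921-71963723, minus strand) has a merged exon length of 2.62 kb, Irx2 (ENSMUSG00000001504.10, chr13:72628820-72634198, plus strand) of 3.282 kb and Irx4 (ENSMUSG00000021604.15, chr13:73260479-73269608, plus strand) of 2.607 kb. The IrxB genes occupy 882 kb of chromosome 8, with Irx3 (ENSMUSG00000031734.13, chr8:91798525-91802067, minus strand, 2.762 kb of exon), Irx5 (ENSMUSG00000031737.11, chr8:92357625-92376286, plus strand, 3.127 kb) and Irx6 (ENSMUSG00000031738.14, chr8:92674288-92680956, plus strand, 3.37 kb). All 6 are protein coding. The span of the antisense gene Irx3os overlaps 1653 bases of the Irx3 span, and that of the antisense gene Gm45505 overlaps 785 bases of Irx6. Introns are included in these spans, and the overlap of exons was not measured. The library kit does not mark strand, so antisense reads over any shared exon bases cannot be told from reads of Irx3 and Irx6. The antisense genes themselves were not analysed here.

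Column totals were 36438282 to 47838448 counts, and each member had at least 53 counts in every library. Sap130 lay at 32.6 to 35.9 CPM, that is counts scaled to a common library size, in the mutants and at 46.8 to 52.1 CPM in the controls, without overlap, while Pcdha9 lay at 9.47 to 18.2 and 14.9 to 24.6 CPM, with overlap. The tissue label was met by its markers: 12 brain genes summed to 6455 to 7292 CPM in mutants and 6755 to 7579 CPM in controls, and none was at 0. Of the markers of other tissues, 8 heart muscle genes summed to 5.24 to 8.24 CPM in mutants and 8.25 to 10.2 CPM in controls. Of 10 eye genes 4 stayed below 1 CPM in every library, and their sum was 10.9 to 16.8 CPM in controls, a range that held the 3 mutants. The 12 skin, cartilage, bone and skeletal muscle genes summed to 165 to 217 CPM in mutants and 134 to 183 CPM in controls. Most of this came from Col2a1, a collagen gene of cartilage, with means of 114 and 88.5 CPM, and from Sox9, with 50.6 and 49.7 CPM. Of the 12 genes 4 stayed below 1 CPM in every library. The part of these markers in the Irx values was not tested. Libraries differed in their levels of regional brain genes. Summed over 17 Hox genes, which mark hindbrain and spinal cord, mutant 260-1 held 0.926 CPM and control 195-6 held 3.17 CPM, against 206 to 457 CPM in the other 6 libraries. Summed over 20 telencephalon genes, mutants 195-3 and 303-2 held 765 and 1189 CPM, against 1939 to 2369 CPM in the other 6. These libraries bear on the Irx results and are named with them.

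Control brains expressed the family at unequal levels. On a length-corrected scale, CPM per kb of exon, Irx1 was highest at 9.84 ± 0.877 (SD, n = 5), followed by Irx2 at 9.02 ± 1.01, Irx3 at 7.10 ± 1.12, Irx5 at 4.57 ± 0.516, Irx6 at 0.872 ± 0.178 and Irx4 at 0.837 ± 0.238. The ranges of Irx1 and Irx2 overlapped over the 5 controls, as did those of Irx2 and Irx3 and those of Irx6 and Irx4. Irx5 stood apart from Irx3 above it and from Irx6 below it in every control. The means of the 3 mutants had the same order as the control means. Irx1, Irx2 and Irx3 were at 18.4 ± 3.59, 17 ± 3.38 and 15.3 ± 1.41 CPM per kb in the mutants. Irx5, Irx6 and Irx4 were at 9.20 ± 0.806, 1.74 ± 0.315 and 1.32 ± 0.749 CPM per kb. Single libraries departed from this order. Irx3 lay above Irx2 in mutant 260-1, and Irx4 lay above Irx6 in controls 260-2, 260-3 and 195-2. The last gene of each cluster, Irx4 in IrxA and Irx6 in IrxB, was thus the minor member, with 0.888% to 3.24% and 2.22% to 3.59% of the family's length-corrected total in a library. The shares of Irx1 were 27.6% to 31.5%, those of Irx2 25.7% to 29.4%, those of Irx3 20.7% to 26.5% and those of Irx5 13% to 16.1%.

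Within IrxA, Irx1, a gene with known roles in lung, tooth and neural development, was at 37.5, 53.4 and 54.1 CPM in mutants 260-1, 195-3 and 303-2. Its controls were at 27.1 (260-2), 28.8 (260-3), 23.6 (195-2), 25.9 (195-6) and 23.5 CPM (303-3). The groups did not overlap, and the E13.5 mutant was the lowest mutant. Irx2, which acts with FGF8 signalling in cerebellum formation in chick, was at 44.5, 66.6 and 56.7 CPM in the mutants in the same order. Its controls, again in that order, were at 33.3, 32.8, 28.1, 28.2 and 25.7 CPM. Here too every mutant lay above every control, and the 2 E13.5 controls were the highest controls.

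Irx4, best known as a gene of the heart ventricles that represses atrial genes, behaved differently from its cluster partners. It was at 1.20 CPM (53 counts) in mutant 260-1, 4.83 CPM (214 counts) in mutant 195-3 and 4.26 CPM (150 counts) in mutant 303-2. The controls were at 2.26, 3.07, 2.38, 1.47 and 1.74 CPM for 260-2, 260-3, 195-2, 195-6 and 303-3. The E13.5 mutant was the lowest of all 8 libraries and the E14.5 mutants were the 2 highest, so the groups overlapped. Summed heart muscle markers were at 5.24, 8.24 and 7.35 CPM in mutants 260-1, 195-3 and 303-2. In the controls they were at 8.52, 10.2, 10.1, 8.25 and 8.38 CPM, in the order above. Within each genotype these sums ranked the libraries in the same order as Irx4. Between genotypes they did not: every mutant sum lay below every control sum, while mutants 195-3 and 303-2 had the highest Irx4. Of the 8 heart muscle genes 4 stayed below 1 CPM in every library, and Myh7 had a mean of 3.62 CPM in mutants and 5.31 CPM in controls. The part of the heart muscle markers in the Irx4 values was not tested.

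Within IrxB, Irx3, which in the ventral neural tube represses Olig2 and is repressed by it, was at 37.9, 43.6 and 45.3 CPM in mutants 260-1, 195-3 and 303-2. The controls were at 22.5, 23.4, 16.9, 18.0 and 17.3 CPM, and the 2 highest of them were the E13.5 ones. Irx5, which controls the repolarization gradient of the mouse heart wall and bipolar cell development in the retina, was at 26.1, 31.1 and 29.1 CPM in the mutants. Its controls were at 16.2, 14.8, 11.9, 14.9 and 13.6 CPM. Both genes separated the groups in all 8 libraries. Irx6, known for its role in retinal bipolar cells, was at 4.63, 6.52 and 6.41 CPM in the mutants and at 2.66, 3.31, 2.50, 3.81 and 2.42 CPM in the controls. Its groups did not overlap either, with control 195-6 nearest to mutant 260-1.

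**Figure D1:**
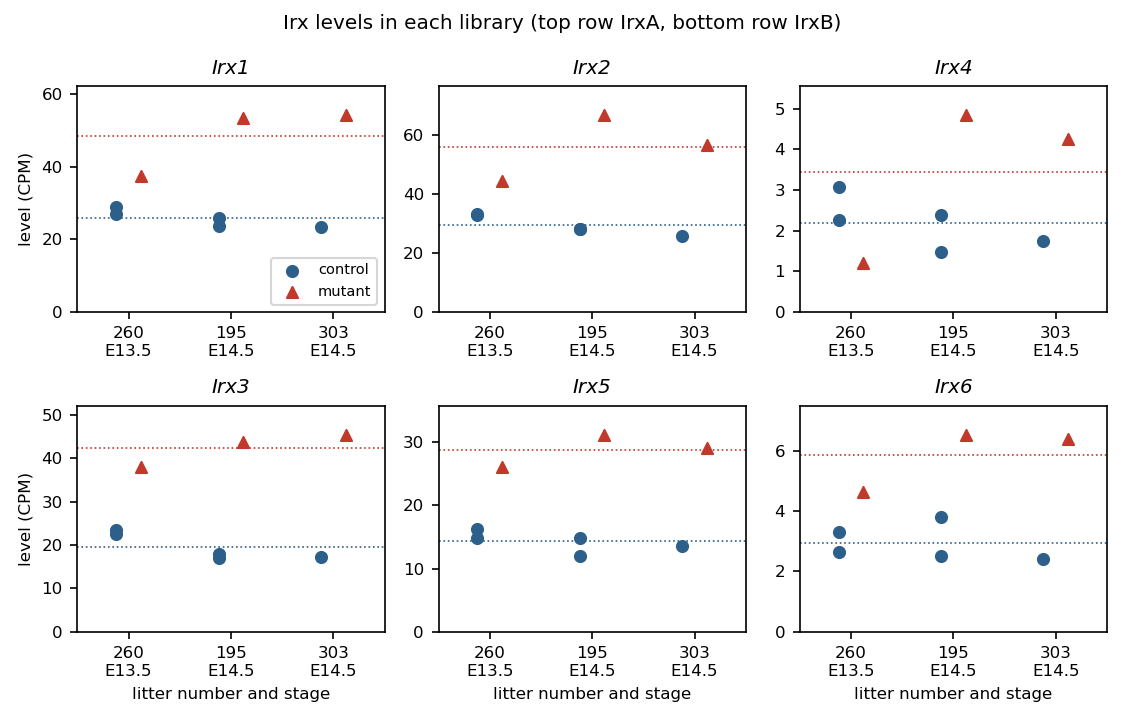
Level of each Irx gene in CPM (vertical axes, from 0) in the 8 libraries, by litter number and stage, with mutants as triangles, controls as circles and dotted lines at the group means. Mutants lie above all controls in 5 of the 6 panels, and in the Irx4 panel the E13.5 mutant is the lowest point at 1.20 CPM.

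As a description, the mutant to control change was a log2 of 1.14 (SE 0.12, 2.20-fold) for Irx3, 1.02 (SE 0.11, 2.02-fold) for Irx5 and 0.97 (SE 0.19, 1.96-fold) for Irx6. The IrxA genes Irx1 and Irx2 were at 0.90 (SE 0.13, 1.86-fold) and 0.92 (SE 0.14, 1.89-fold). Irx4 was at 0.57 with an SE of 0.46. All but Irx4 were past the threshold of the edgeR quasi-likelihood test (Benjamini-Hochberg adjusted p under 0.05), 5 of 6 genes, while 10.9% of the 17357 genes tested were called higher and 9.74% lower. The same 5 had every mutant above every control, which held for 11.3% of the genes tested. No reading is made of these counts, because the family was chosen on this difference. In bulk tissue more cells of the regions that use a gene and more of its RNA per cell cannot be told apart.

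For the 5 genes other than Irx4 the difference varied more between litters than between genes. Against the mean of the controls with the same litter number, mutant 260-1 was higher by a log2 CPM of 0.42 for Irx1, 0.43 for Irx2, 0.72 for Irx3, 0.75 for Irx5 and 0.63 for Irx6, and lower for Irx4, at -1.11. Mutant 195-3 was higher by 1.11, 1.24, 1.32, 1.22 and 1.07 for the same 5 genes and by 1.35 for Irx4. Mutant 303-2 was higher by 1.20, 1.14, 1.39, 1.09 and 1.39 for the 5 and by 1.27 for Irx4. In both E14.5 litters all 6 genes were thus higher in the mutant by a log2 above 1. In the E13.5 litter none was higher by that much, and Irx4 went the other way, at -1.11. The median over all genes tested was 0.01, 0.00 and 0.01 in litters 260, 195 and 303. In litter 195, 0.887% of the genes had a larger difference than Irx3, and in litter 260 this share was 2.42% for Irx3 and 9.44% for Irx1.

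**Figure D2:**
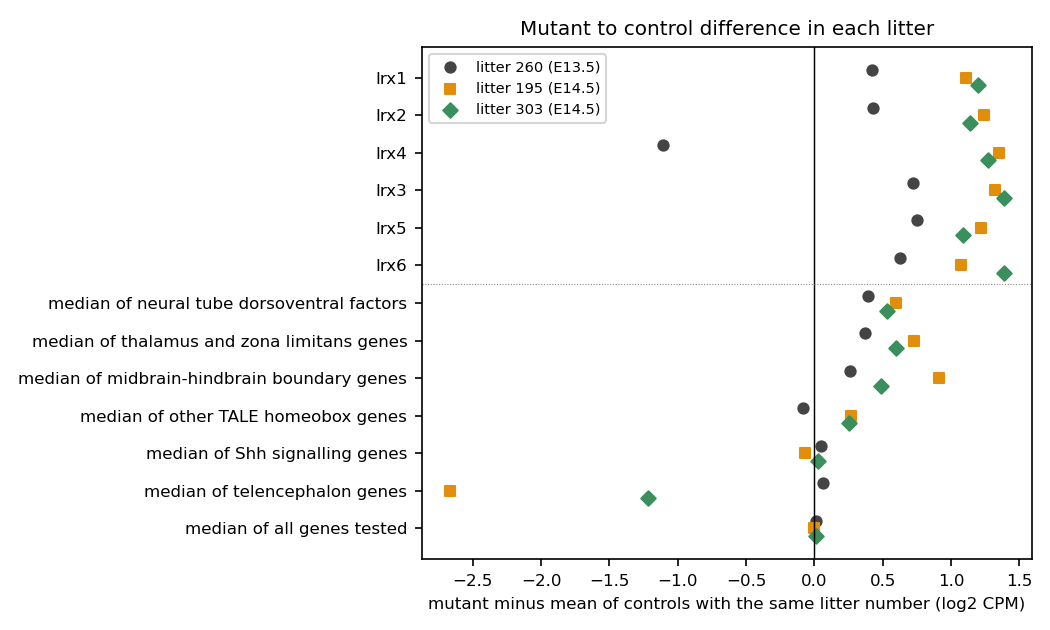
Difference in log2 CPM (horizontal axis) between each mutant and the mean of the controls with its litter number, for the Irx genes (upper part) and as medians over gene lists and all genes (lower part). The E14.5 litters lie at 1.07 to 1.39 for the 6 genes, the E13.5 litter lies at 0.42 to 0.75 for 5 of them, and Irx4 is at -1.11 there.

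Irx4 deviated most in mutant 260-1, a library that almost lacked Hox expression. Mutant 260-1 (summed Hox level 0.926 CPM) and control 195-6 (3.17 CPM) had the lowest Irx4 levels of the 8 libraries, at 1.20 and 1.47 CPM. Control 303-3, with a summed Hox level of 238 CPM, was close to control 195-6, at 1.74 CPM. Relative to its cluster partner Irx2, per kb, Irx4 was at a log2 of -4.88 in mutant 260-1 and -3.93 in control 195-6, and between -3.55 and -3.08 in the other 6. Relative to Irx6 it was at -1.58 and -1.01 in those libraries and between -0.22 and 0.30 in the other 6. Control 195-6 also had the highest Irx6 level of the controls, at 3.81 CPM, which lowers its ratio. No other member showed this: Irx6 relative to Irx5 ran from -2.72 to -2.07, and control 195-6 was at the upper end of that range. Without mutant 260-1 alone the mutant to control log2 change of Irx4 was 1.29. Without both libraries it was 1.14, with Irx3, Irx5 and Irx6 at 1.38, 1.24 and 1.39. All 6 members were then past the threshold, beside 984 of 17454 genes called higher. No reading is made of this count, because the family was chosen on the genotype difference. Whether the extent of hindbrain in a sample sets the Irx4 level was not tested.

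**Figure D3:**
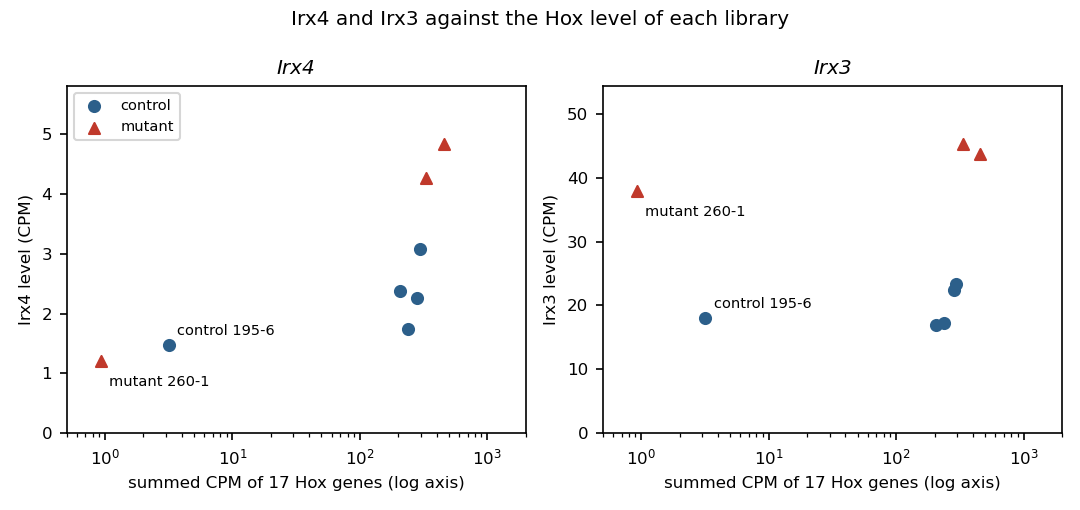
Irx4 (left) and Irx3 (right) level in CPM against the summed CPM of 17 Hox genes on a log axis, 1 point per library. The 2 libraries with almost no Hox signal are the lowest for Irx4, at 1.20 and 1.47 CPM, whereas for Irx3 mutant 260-1 stays above every control at 37.9 CPM.

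Stage was independent of the choice of the family and was tested in the same model over all 8 libraries, which it shares with the genotype comparison. None of the 6 genes was called between E14.5 and E13.5, where 2.24% of genes were called higher and 1.01% lower at E14.5. No member reached an unadjusted p of 0.05, which 4423 of the 17357 genes did. DESeq2 called 2364 genes and no member. The log2 change from E13.5 to E14.5 was smallest for Irx2 at -0.02 (SE 0.14, adjusted p = 0.956, edgeR) and Irx1 at 0.05 (SE 0.13, adjusted p = 0.863). Irx3 was at -0.18 (SE 0.12, adjusted p = 0.382), Irx5 at -0.06 (SE 0.11, adjusted p = 0.789), Irx6 at 0.15 (SE 0.20, adjusted p = 0.681) and Irx4 at 0.22 (SE 0.47, adjusted p = 0.819). With these errors a stage change of Irx4 as large as its genotype change would not have been detectable.

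Among the 5 controls alone, 3 at E14.5 and 2 at E13.5, stage was fitted again. Control 195-6, of the E14.5 side, almost lacked Hox expression. Irx3 fell by a log2 of 0.41 (SE 0.10, adjusted p = 0.0308, edgeR) toward E14.5, from a mean of 22.9 to 17.4 CPM, and it was the only member called, where 2.27% of genes were called lower at E14.5. Over the alternatives of the stage comparison the adjusted p of Irx3 ran from 0.0308 to 0.714. Irx2 was at -0.28 (adjusted p = 0.0886), Irx1 at -0.21 (adjusted p = 0.235), Irx4 at -0.52 (adjusted p = 0.218), Irx5 at -0.21 (adjusted p = 0.354) and Irx6 at -0.04 (adjusted p = 0.937). All 6 values were negative. An unadjusted p under 0.05 was found for 4 of the genes, beside 3339 of the 16255 genes in this fit. Of those 16255 genes 524 were called higher and 369 lower. In that fit of the controls 7 of 17 dorsoventral factors were also called lower at E14.5 and 1 higher (median -0.45), 3 of 12 other TALE genes and 3 of 13 Shh signalling genes were called lower, and 4 of 20 telencephalon genes were called higher. In the mutants the single E13.5 brain had the lowest level of every member instead.

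Whether the mutant difference itself depended on stage was tested with an interaction term. The E13.5 mutant arm of this test is 1 library, mutant 260-1, so the test assumes that it varies like the other groups, and it concerns the same difference that chose the family. All 6 estimates were positive, that is, the mutant difference was larger at E14.5 in these libraries. They were 2.44 for Irx4 (log2, SE 0.43), 0.75 for Irx2 (SE 0.17), 0.72 for Irx1 (SE 0.15), 0.63 for Irx3 (SE 0.15), 0.52 for Irx6 (SE 0.37) and 0.41 for Irx5 (SE 0.20). None passed the threshold over all genes with edgeR, where 0.104% of genes were called in either direction. Adjusted p was 0.0913 for Irx4, 0.147 for Irx1, 0.17 for Irx2, 0.221 for Irx3, 0.564 for Irx5 and 0.706 for Irx6. An unadjusted p under 0.05 was found for 4 of the 6, beside 1622 of the 17357 genes. DESeq2 called 242 of the 17357 genes, among them those 4. Their adjusted p was 0.000815 for Irx4, 0.0109 for Irx1, 0.0152 for Irx2 and 0.0429 for Irx3. Over all alternatives these p ran from 0.000815 to 0.405, 0.0109 to 0.541, 0.00598 to 0.549 and 0.0429 to 0.655. With edgeR, the estimates without mutant 303-2 were 0.73 for Irx1, 0.88 for Irx2 and 2.55 for Irx4. Without mutant 195-3 that of Irx4 was 2.34. Each of these fits leaves 1 mutant per stage. Mutant 260-1 is also a library almost without Hox expression, so stage, litter and that feature cannot be told apart here.

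The E14.5 litters gave a measure of how well the levels repeated at 1 stage. Between litters 303 and 195, with genotype in the model, no member was called by edgeR, nor was any of the 17415 genes tested (0.0%), and no member had an unadjusted p under 0.05, against 501 genes. DESeq2 called 11 genes and no member. The log2 differences were 0.01 for Irx3 (SE 0.10), -0.04 for Irx1 (SE 0.10), -0.04 for Irx5 (SE 0.14), -0.18 for Irx2 (SE 0.09), -0.17 for Irx4 (SE 0.25) and -0.22 for Irx6 (SE 0.24), with adjusted p from 0.989 to 0.994. The larger errors belonged to the minor members Irx4 and Irx6, which rest on fewer counts.

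The balance of the clusters was compared as the summed level of IrxB over that of IrxA, per kb on a log2 scale. It was -0.60, -0.64, -0.79, -0.62 and -0.62 in controls 260-2, 260-3, 195-2, 195-6 and 303-3, and -0.27, -0.62 and -0.52 in mutants 260-1, 195-3 and 303-2. IrxA was the larger cluster in all 8 libraries, and mutant 260-1 was the one nearest to an even balance. The mean was -0.63 ± 0.10 at E14.5 (SD, n = 5) and -0.50 ± 0.20 at E13.5 (SD, n = 3), a difference of -0.13 (two-sided exact permutation test, p = 0.339, where the smallest p this design allows is 0.0179). Summed over the family the level was 51.7, 70.2 and 67.1 CPM per kb in mutants 260-1, 195-3 and 303-2 and between 28.8 and 36.4 CPM per kb in the controls.

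Ratios between major members were compared for pairs within and between clusters. Irx1 over Irx2, per kb, was at a log2 of 0.11 ± 0.13 in mutants and 0.13 ± 0.08 in controls (SD, n = 3 and 5), and was positive in all 8 libraries. Irx3 over Irx5 was at 0.73 ± 0.08 and 0.63 ± 0.15. Between clusters, Irx2 over Irx5 was at 0.87 ± 0.17 and 0.98 ± 0.14, and Irx3 over Irx1 was at -0.25 ± 0.17 in mutants and -0.48 ± 0.11 in controls, with mutant 260-1 highest at -0.06. Over the 8 libraries Irx1 over Irx2 ran from 0.01 to 0.26 and Irx3 over Irx5 from 0.45 to 0.84. Irx2 over Irx5 ran from 0.70 to 1.16 and Irx3 over Irx1 from -0.60 to -0.06, so these ranges between clusters were the wider ones. Irx1 over Irx5 and Irx2 over Irx3 were not computed. These ratios use the genotype difference that chose the family and carry no test.

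Profiles over the 8 libraries were compared by the root-mean-square difference of mean-centred log2 CPM, a description in which all points share the same libraries. Centring over all libraries keeps the mutant to control difference that chose the family, so nearness in part restates a similar difference. Irx1 and Irx2 were 0.0852 apart, and no other gene of the family came as close to either. Irx3 and Irx5 were 0.123 apart. Irx4 was far from every member, at 0.515 to 0.635. The non-member genes nearest to Irx1 were Pdlim3 (0.0689), Asic4 (0.0805), Sox14 (0.103), Gng11 (0.104) and Txlnb (0.11), and those nearest to Irx2 were C1ql4 (0.098), Pdlim3 (0.112), Asic4 (0.114), Mgst1 (0.119) and Shox2 (0.125). Nearest to Irx3 were Shox2 (0.0822), Pou4f1 (0.1), Nphs1 (0.117), C1ql4 (0.125) and Uncx (0.144), and nearest to Irx5 were En2 (0.0859), Sox14 (0.123), Rps27rt (0.126), Cnpy1 (0.127) and C1ql4 (0.13). Shox2, Pou4f1, Uncx and En2 are homeobox genes. Irx6 was nearest to Gng11 (0.151) and, among the first 5, also to En2 (0.177). Irx4 had other neighbours, led by Vgll3 (0.226), Evx1 (0.234), Mab21l2 (0.242), Lmx1b (0.242) and Slc30a3 (0.25), of which Evx1 and Lmx1b are homeobox genes.

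The genes beside the clusters were read from the same fit. Of 20 flanking protein-coding genes, 5 on each side of each cluster, 19 had enough counts to be tested, and their median mutant to control log2 change was 0.06, against 0.00 over all genes. For genotype 3 of the 19 were called higher and 1 lower, beside 10.9% and 9.74% of all genes. Ndufs6, a subunit of mitochondrial complex I that lies 50.2 kb beyond Irx4, rose by 0.47 (SE 0.10, adjusted p = 0.0139, edgeR). Mrpl36, a mitochondrial ribosomal protein gene next to it, rose by 0.37 (SE 0.11, adjusted p = 0.0426), and Aktip, a vesicle trafficking gene 598.5 kb from IrxB, rose by 0.24 (SE 0.06, adjusted p = 0.0208). Ube2ql1, a ubiquitin-conjugating enzyme gene 2218.0 kb from IrxA, fell by 0.31 (SE 0.07, adjusted p = 0.0187) and was also the single flanking gene called for stage, at 0.39. Because the Irx genes were chosen on this difference and the flanking genes were not, their sizes are given side by side without a comparison.

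Fto, whose introns hold enhancers that contact Irx3 in mouse and human, lies 130.1 kb from IrxB. Its mean was 191 ± 15.0 CPM over the 3 mutants and 206 ± 11.1 CPM over the 5 controls (SD), a log2 change of -0.12 (SE 0.06, adjusted p = 0.197, edgeR). Its other neighbour Rpgrip1l, a cilium gene, was at 0.09 and Mmp2, a matrix metalloproteinase 146.3 kb beyond Irx6, was at 0.08. On the IrxB side the tested neighbours ranged from -0.68 to 0.24, where the lowest, Slc6a2, did not pass the test (adjusted p = 0.124).

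**Figure D4:**
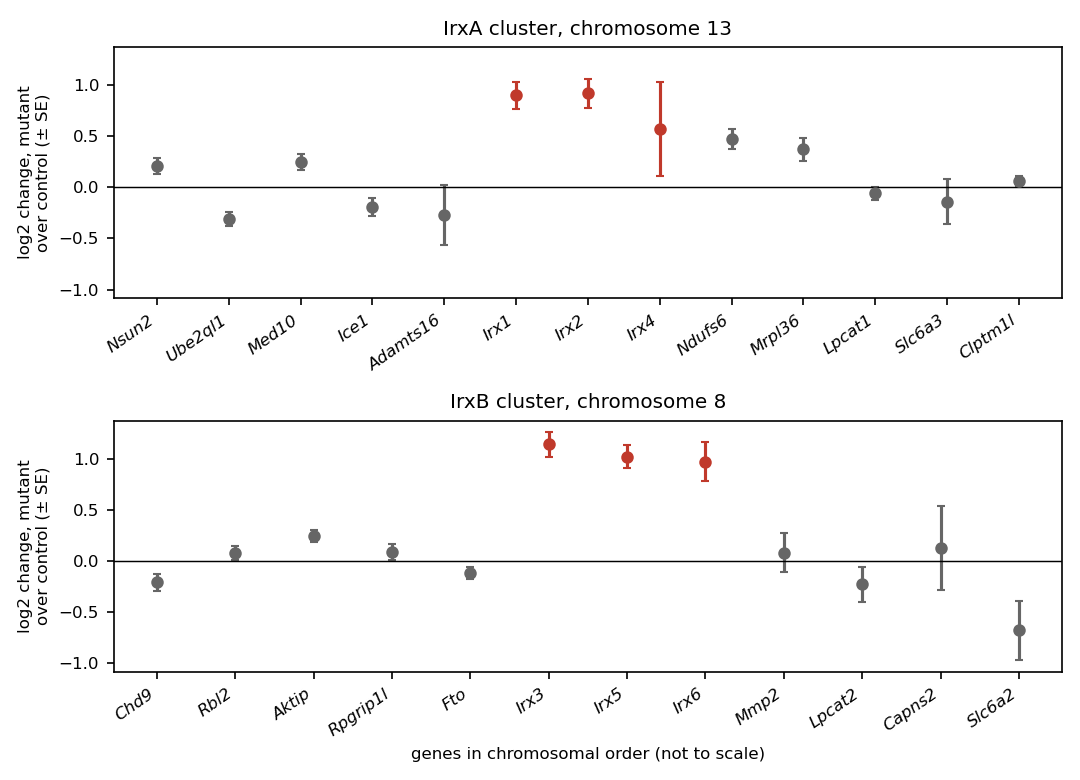
Mutant to control log2 change with its standard error for the Irx genes (red) and the tested flanking genes (grey), in chromosomal order and not to scale, for IrxA above and IrxB below. The flanking genes lie between -0.68 and 0.47, and the Irx genes other than Irx4 lie between 0.90 and 1.14.

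Promoter sequence is shown for Irx2 and Irx4, a pair from the same cluster with unlike profiles. In the RefSeq promoter table (GRCm38.p6) 3 of the 6 members were matched, Irx2, Irx3 and Irx4, and Irx1, Irx5 and Irx6 were not. For Irx3 the upstream window lies inside an annotated exon and is not shown. The bases before the start site are printed 5′ to 3′ on the plus strand, without annotated exon, with capitals at the GC box GGGCGG and at CCAAT.
Irx2, chr13:72628570-72628819: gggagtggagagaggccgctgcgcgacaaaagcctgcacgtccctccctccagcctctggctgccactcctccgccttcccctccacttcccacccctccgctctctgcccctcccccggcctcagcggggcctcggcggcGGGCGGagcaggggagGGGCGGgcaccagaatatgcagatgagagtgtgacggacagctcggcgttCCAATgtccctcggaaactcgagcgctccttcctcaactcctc
Irx4, chr13:73260247-73260478: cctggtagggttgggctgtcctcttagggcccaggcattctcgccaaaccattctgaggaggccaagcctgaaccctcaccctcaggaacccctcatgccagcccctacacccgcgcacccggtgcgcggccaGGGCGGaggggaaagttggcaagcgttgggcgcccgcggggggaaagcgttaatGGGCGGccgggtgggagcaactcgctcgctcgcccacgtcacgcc

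Both windows were rich in G and C, with 68.4% for Irx2 and 68.8% for Irx4, against a median of 52.4% over the 32851 promoters of the table. Their observed to expected CpG ratios were 0.666 and 0.744, and that of the Irx3 window was 0.79, against a median of 0.373. On either strand, GGGCGG was found in the 250 bases of 32.7% of all promoters, and it occurred at 2 positions in each of Irx2 and Irx4 and not in Irx3. CCAAT was found in 33.8% of promoters and at 1 position in Irx2. The letters TATAAA (12.4% of promoters), TAATTA (4.8%) and the Iroquois palindrome ACANNTGT (6.3%) are not in these 3 windows. The matches are a description of these letters, and no expression value was tested against them.

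Other regional genes were counted to place the family, with the same edgeR test over all genes. Over all genes 10.9% were called higher and 9.74% lower. The lists were chosen with earlier results of these data known. Of 17 transcription factors that pattern the dorsoventral axis of the neural tube, 9 were higher in mutants and none lower (1 lower at an unadjusted p under 0.05, and 1 called lower by DESeq2), with a median log2 change of 0.50. Among them Dbx1, a gene of interneuron progenitors, rose by 1.54 (SE 0.20, adjusted p = 0.00367), Pax3, a dorsal factor, by 0.92 (adjusted p = 0.00991), and Nkx2-2, a ventral one, by 0.72 (adjusted p = 0.00885). Dorsal and ventral factors were thus both among the risen genes. Of 18 genes of thalamus and zona limitans 10 were higher and none lower (0 at an unadjusted p under 0.05 and 0 by DESeq2), with a median of 0.49, and Barhl2, a diencephalic homeobox gene, rose by 0.87 (SE 0.12, adjusted p = 0.00346). Of 14 genes of the midbrain-hindbrain boundary 6 were higher and none lower (1 at an unadjusted p under 0.05 and 0 by DESeq2), with a median of 0.50, and En2, a homeobox gene of midbrain and cerebellum, rose by 0.93 (SE 0.10, adjusted p = 0.00206). The Irx genes are not ranked against these lists, since they were chosen on this difference. Leaving out mutant 303-2 left 4 of the dorsoventral factors called, and the 3 lists were otherwise called higher for 5 to 12 genes each over the alternatives. A lower call of 1 boundary gene appeared with the E14.5 libraries only, without mutant 260-1, and without mutant 260-1 and control 195-6. The same settings, and leaving out mutant 195-3, gave 1 dorsoventral factor called lower. No alternative called a gene of the thalamus list lower.

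Genes of the most anterior and most posterior regions had no higher calls in the main fit. Of 20 telencephalon genes 2 were lower, near the share of 9.74% over all genes. None of them was higher (0 at an unadjusted p under 0.05 and 0 by DESeq2, which called 7 lower). Their median was -0.91, and in the litters it was 0.06 in 260, -2.67 in 195 and -1.22 in 303. The litters with the larger Irx differences, 195 and 303, were those whose mutants were low in telencephalon genes, and the part of this in the Irx values was not tested. Of 17 Hox genes none was called for genotype with edgeR or DESeq2, and 0 had an unadjusted p under 0.05, while their median difference was -7.53, 3.82 and 0.60 in litters 260, 195 and 303. Without mutant 260-1 and control 195-6, 11 of the 17 were called higher with a median of 0.90, and 8 of the 20 telencephalon genes were called lower. Of the 17454 genes in that fit 984 were called higher and 986 lower. Leaving out 1 library at a time gave 1 to 9 telencephalon genes called lower, 9 of them without mutant 260-1, and 2 called higher without mutant 195-3.

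Relatives and a signalling pathway showed smaller differences. Of the 12 other TALE homeobox genes 3 were higher and 1 lower in mutants, beside 10.9% and 9.74% of all genes, with a median of 0.17. Tgif1, a repressor of TGF-beta targets, rose by 0.83 (SE 0.10, adjusted p = 0.00271), Pbx2, a Hox cofactor, by 0.45 (SE 0.06, adjusted p = 0.00346) and Pbx4 by 0.37 (SE 0.08, adjusted p = 0.0174), while Meis2, a cofactor of the Pbx proteins, fell by 0.27 (SE 0.06, adjusted p = 0.0202), a call that was lost without control 195-2. The 3 higher calls fell to 0 without the stage term in the model. In the stage comparison Tgif1 fell by 0.59 (adjusted p = 0.0359) and Pbx2 by 0.32 (adjusted p = 0.0411) toward E14.5, and both calls were lost without control 195-2, 260-2, 260-3 or 303-3 or without mutant 260-1. Of 13 genes of Sonic hedgehog signalling, which sets ventral neural tube pattern, only Shh itself was called, at 0.44 (SE 0.12, adjusted p = 0.0326), with a list median of 0.04, and this call was lost without control 195-2, 195-6, 260-2 or 303-3 or without mutant 303-2, with upper quartile factors, without the stage term and with the E14.5 libraries only.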

How the data were processed

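RNA-seq libraries of 8 embryonic mouse brains were compared, 3 mutants and 5 controls. Per the labels' protocols, RNA was isolated on columns with DNase digestion, followed by library preparation with a TruSeq RNA kit, which selects poly(A) RNA and does not mark strand. The submitters' processing notes name TopHat2 2.0.9, HTSeq 0.5.4p5, edgeR 3.4.2, mm10 and GRCm38 without their roles. The authors deposited a table of expected counts (reads assigned to each gene, in part as fractions) without normalization. Whole numbers make up 66.0% to 68.9% of a column, and the sources used here do not state the counting step behind the fractions. All 8 columns matched a sample title.

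Expected counts were rounded and analysed with edgeR 4.0.16 in R 4.3.3. TMM scaling, filterByExpr on genotype groups (minimum count 10, 17357 genes kept) and the robust quasi-likelihood test with stage and genotype were used, with Benjamini-Hochberg adjusted p under 0.05 as the threshold. The common biological coefficient of variation was 14.27%. The interaction used the product of stage and genotype. The litter comparison used the 5 E14.5 libraries, and controls were also fitted alone. CPM are counts scaled to TMM-adjusted library size, log2 CPM uses a prior count of 2, and CPM per kb divides by merged exon length. Homeoboxes were aligned with MAFFT 7.526. The scripts were tested on simulated data. Labels call the samples separate embryos only by title, so p-values measure the spread between these samples.

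The members and gene lists were chosen with earlier results of these data known. Named genes were the members, the 5 flanking genes on each side, up to 3 called genes per list and direction, and the 5 genes of nearest profile per member. Alternatives were DESeq2 1.42.0, other scaling factors, count filters, no robust dispersion, no stage term, a litter block, subsets of libraries and leaving out each library in turn. No p is given for the mutant to control contrast of the members.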

Additional observations from a re-analysis of the deposited data

Results flagged for a closer look

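The balance of the clusters in control 195-2, at a log2 of -0.79 for IrxB over IrxA per kb, stood apart from the other 4 controls, which lay between -0.64 and -0.60. Its gap to the nearest control was 0.764 of the range of the 5 controls, above Dixon's critical value of 0.71. In this library Irx3 and Irx5 were at 16.9 and 11.9 CPM, each the lowest of the controls, with control 303-3 next at 17.27 and 13.63 CPM. Irx1 and Irx2 were at 23.57 and 28.07 CPM, against lows of 23.51 and 25.68 CPM in control 303-3. Of 8 such measures over the controls this was the only 1 past the critical value. Chance alone flags about 1 in 20 of such measures, a rate for each measure and not for the 8 together.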

How the results depend on the processing

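The number of Irx genes past the threshold for genotype was 5, and 5 or 6 under all 18 alternatives. It was 6 with the E14.5 libraries only and without mutant 260-1, where the log2 change of Irx4 was 1.29, and without mutant 260-1 and control 195-6 together. In these fits 766 of 17415, 1058 of 17655 and 984 of 17454 genes were called higher. The member counts are not read, because the family was chosen on the genotype difference. Over the alternatives the change was 0.26 to 1.29 for Irx4, 0.80 to 1.19 for Irx1, 0.75 to 1.20 for Irx2, 1.04 to 1.38 for Irx3, 0.92 to 1.24 for Irx5 and 0.88 to 1.39 for Irx6. The count for stage was 0 except among controls alone, where it was 1. The count for the interaction was 0 with edgeR, 4 with DESeq2 and 2 without a filter on low counts, where 18, 242 and 156 genes were called. Leaving out 1 library gave 0 to 3, with 1 without mutant 195-3 and 3 without mutant 303-2, and the cause was not tested. The count between litters was 0 throughout. The difference in cluster balance between stages ran from -0.20 to -0.01 (exact p from 0.0952 to 0.8).

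Over all genes the genotype count was 3576, and ran from 1317 without control 195-2 to 4984 without mutant 195-3. With upper quartile factors the split was 1240 higher and 2090 lower. The stage count was 565, and was 0 without control 195-2, 260-3 or 303-3 and 2364 with DESeq2. The interaction count was 18, from 6 without control 260-2 to 1051 without mutant 303-2, and the litter count was 0 and 581 without control 303-3.

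Same-litter correlations of deviations were 0.202, 0.032 and 0.15 in litters 260, 195 and 303, and mutant 195-3 correlated best with litter 303 (0.233), so the numbers were not taken to pair the samples. With litter as a replicate block 5 members were past the threshold for genotype (2698 genes) and 0 for the interaction (13 genes). Stage could not be fitted with the block, nor the interaction without mutant 260-1. The SE of the Irx4 change for genotype was 0.46, and 0.23 without mutant 260-1, while that of Irx6 was 0.19.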
